A study of Mus musculus with 17 samples.

Results

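The IL-7 receptor alpha chain gene Il7r was read together with the genes of other receptor chains of the common-chain cytokine family and of the kinase they share, on arrays of sorted mouse CD4+ T cells. The 8 members were Il7r, Il2rb, Il2rg, Il4ra, Il21r, Il15ra, Il27ra and Jak3, and they were chosen by gene symbol, with no measured value in the rule. Earlier results of these data were known when they were chosen. A probe set of their own was named for 7 of the 8 by the platform's gene annotation, 12 probe sets in all, out of 45101 probe sets and 18194 named genes. Il2rg is not analysed here, and a pair of further probe sets that Jak3 shares with another gene was not used.

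Transcripts were measured on 17 Affymetrix arrays in 8 groups, 6 of a co-culture and 2 of a memory cell culture. In the co-culture, splenic CD4+ T cells without Foxp3, which defines regulatory T cells, were taken from male C57BL/6-Foxp3/GFP reporter mice aged 6 to 10 weeks (3 mice pooled per array). Over 5 days they were kept with lamina propria dendritic cells (LP-DC), with spleen DC plus 100 nM retinoic acid (Sp-DC plus RA), or with spleen DC alone (Sp-DC), at 10 T cells per DC. Cells were then sorted by GFP into Foxp3+ and Foxp3- cells, giving 2 arrays per group except for the Foxp3- cells of Sp-DC plus RA, which have 1. In the memory experiment, CD44hi CD62L- CD25- CD4+ cells of spleen and lymph nodes of C57BL/6 mice of the same sex, ages and number per array were kept for 48 h with naive cells, at 2 memory cells per naive cell, and beads carrying antibodies to CD3 and CD28, with 100 nM RA or without, and sorted back by a congenic marker (3 arrays each). Every group received IL-2 and TGF-beta: 5 ng/ml IL-2 and 0.6 ng/ml TGF-beta with 1 ug/ml antibody to CD3 in the co-culture, and 20 U/ml IL-2 and 10 ng/ml TGF-beta in the memory experiment. A level seen here is therefore that of activated cells exposed to an exogenous common-chain cytokine, and Foxp3+ cells were tagged by the reporter allele.

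Common-chain cytokines (IL-2, IL-4, IL-7, IL-9, IL-15 and IL-21) signal through receptors that each join a chain of their own to the shared gamma chain encoded by Il2rg. The gamma chain binds the kinase Jak3, the other chain binds Jak1, and the pair phosphorylates Stat factors, chiefly Stat5 for IL-2, IL-7 and IL-15, Stat6 for IL-4 and Stat3 for IL-21. In CD4+ T cells IL-7 maintains naive and memory cells, Il7r transcripts are lowered by activation and by the cytokines themselves, and regulatory T cells are known for low Il7r and for dependence on IL-2. Il27ra is the odd member: it encodes the specific chain of the IL-27 receptor, which pairs with gp130 (Il6st) rather than with the gamma chain.

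Promoter windows of 6 of the 8 members were found in RefSeq's promoter set (GRCm38.p6), each 300 bases long and spanning a start site; those of Il2rb and Il27ra were not used. The windows of Il7r, Il4ra and Il21r are shown 5′ to 3′ on the gene's strand, with matches in capitals. Il7r is the member with the largest differences between cultures. By the probe set read for each gene, levels of Il4ra and Il21r went together across arrays, as did those of Jak3, whose window is not shown. In memory cells the other Il4ra probe sets varied less between arrays than the one read, as described below. The Il7r window lies at chr15:9529827-9530126 (minus strand), that of Il4ra at chr7:125552021-125552320 (plus strand) and that of Il21r at chr7:125603179-125603478 (plus strand).
Il7r: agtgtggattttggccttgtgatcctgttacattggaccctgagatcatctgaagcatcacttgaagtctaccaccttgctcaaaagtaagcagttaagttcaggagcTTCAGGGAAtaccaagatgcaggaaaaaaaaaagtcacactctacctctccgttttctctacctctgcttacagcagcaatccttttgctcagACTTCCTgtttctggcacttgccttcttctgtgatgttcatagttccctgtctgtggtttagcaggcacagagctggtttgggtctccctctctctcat
Il4ra: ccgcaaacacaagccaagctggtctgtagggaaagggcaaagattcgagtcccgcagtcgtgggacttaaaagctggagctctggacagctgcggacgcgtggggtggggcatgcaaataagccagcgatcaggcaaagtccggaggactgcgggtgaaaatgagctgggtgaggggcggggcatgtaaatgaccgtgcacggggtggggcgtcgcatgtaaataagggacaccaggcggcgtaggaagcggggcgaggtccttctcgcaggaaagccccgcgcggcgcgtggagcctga
Il21r: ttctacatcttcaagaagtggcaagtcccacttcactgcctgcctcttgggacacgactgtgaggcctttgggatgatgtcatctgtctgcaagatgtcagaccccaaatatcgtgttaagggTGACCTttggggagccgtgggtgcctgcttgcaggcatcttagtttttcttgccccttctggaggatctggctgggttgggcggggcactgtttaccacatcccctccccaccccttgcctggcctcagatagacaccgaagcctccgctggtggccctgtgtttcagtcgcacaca
Both strands were searched for AGGAAGT (the core bound by Ets family factors, among them Gabpa, a known activator of Il7r), TTCNNNGAA (the Stat core, which reads the same on both strands) and AGGTCA (the core of retinoic acid receptor elements), and no matches overlapped. The Il7r window holds AGGAAGT at bases 202 to 208, on the opposite strand and so printed ACTTCCT, and TTCAGGGAA, a match to the Stat core, at bases 109 to 117. The Il21r window holds AGGTCA at bases 124 to 129, on the opposite strand and so printed TGACCT, and the Il4ra window holds none of the 3. Of 32851 promoter windows in the set, 9.35% hold AGGAAGT, 8.3% hold TTCNNNGAA and 16.3% hold AGGTCA. The matches are descriptions of letters only. Il4ra and Il21r are neighbours on chromosome 7, with 0 genes listed between them.

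Values are RMA intensities taken to log2, on which array medians ran between 5.88 and 5.98. A gene is read from its brightest probe set, and it was tested where it exceeded the array median on at least 2 arrays of the experiment, which left 11940 genes in the co-culture and 12163 in the memory experiment; the 7 measured members passed in both. Differences were tested with limma without regard to array number (the unpaired fit). The labels also number the arrays within each group, and arrays of the same number deviated together, so a fit that takes the array number as a block is given beside it and called the paired fit. A member is called at an adjusted p under 0.05. Nothing in the labels says that arrays of a group came from separate cultures, so p-values measure the spread between these arrays.

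Of the listed CD4+ T cell identity markers, 9 of 10 had a probe set, and all 9 lay above the array median on every array. The log2 of the summed level of 5 B cell markers was 7.71 to 8.27. That of 7 CD8 T and NK cell markers was 10.70 to 12.92 in the co-culture and 9.24 to 10.66 in memory cells. The 3′ bias of the RNA differed between experiments. The log2 ratio of 3′ over 5′ control probe sets of Gapdh was 3.58 to 4.05 on memory arrays numbered 1 and 2 and 4.58 to 4.74 on those numbered 3, against 2.09 to 3.51 in the co-culture, and for Actb it was 3.60 to 4.08, 3.54 to 3.70 and 1.80 to 2.97 in the same sets. In the co-culture the array numbered 2 was the higher of its group in 5 of 5 groups for Il7r, Il2rb, Il21r, Il27ra and Jak3, in 4 for Il4ra and in 3 for Il15ra. The Actb ratio also split by number there, at 1.80 to 2.18 on arrays numbered 1 and 2.72 to 2.97 on those numbered 2. That of Gapdh went the other way within groups, at 2.91 to 3.51 on arrays numbered 1 and 2.09 to 3.04 on those numbered 2. The part of these ratios in the differences between numbers was not tested.

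Il7r, whose product binds IL-7, differed between types of DC in both sorted populations. In Foxp3+ cells its log2 level was 12.62 and 13.37 with LP-DC, 12.08 and 12.73 with Sp-DC plus RA, and 11.78 and 12.14 with Sp-DC. In Foxp3- cells it was 12.93 and 13.40 with LP-DC, 12.74 on the lone array of Sp-DC plus RA, and 11.84 and 12.40 with Sp-DC. Both LP-DC groups lay above both Sp-DC groups with no overlap, and cells of Sp-DC plus RA lay between them by their means. In Foxp3+ cells the arrays of Sp-DC plus RA overlapped those of LP-DC and those of Sp-DC. In Foxp3- cells the lone array of Sp-DC plus RA lay between LP-DC and Sp-DC without overlapping either. It stood just above the Foxp3+ pair of its own culture. The share of all genes without overlap between LP-DC and Sp-DC was not counted.

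**Figure D1:**
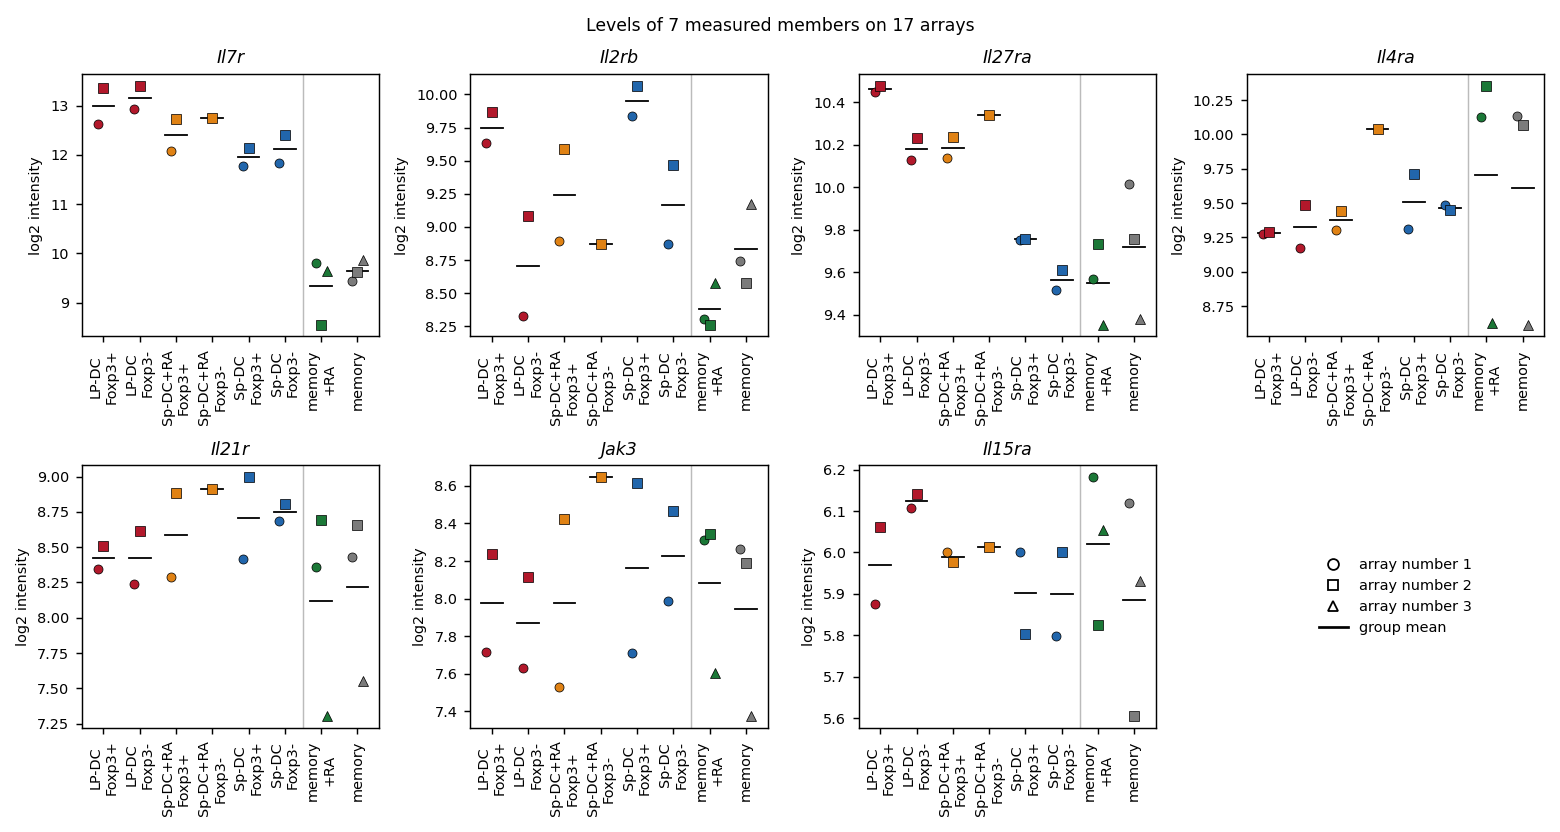
Log2 intensity of the 7 measured members on each of the 17 arrays (vertical axis, a different range in each panel) by group (horizontal axis), with symbols for the array number and a bar for the group mean. By group means Il7r is highest with LP-DC and lowest with Sp-DC, and it lies lower on all 6 memory arrays, and Il2rb is higher in the Foxp3+ than in the Foxp3- cells of each culture by the group means.

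In order of group means, Il7r averaged 13.16 ± 0.33 in LP-DC Foxp3- cells, 12.99 ± 0.53 in LP-DC Foxp3+ cells, 12.40 ± 0.46 in Sp-DC plus RA Foxp3+ cells, 12.12 ± 0.39 in Sp-DC Foxp3- cells and 11.96 ± 0.25 in Sp-DC Foxp3+ cells (log2 level, SD, n = 2 each), with the lone Sp-DC plus RA Foxp3- array at 12.74, between LP-DC Foxp3+ and Sp-DC plus RA Foxp3+ cells. Of neighbours in this order, no 2 groups with 2 arrays each were apart. In the paired fit Il7r rose with LP-DC over Sp-DC by 1.03 ± 0.13 (log2 difference ± SE, 2.04-fold, adjusted p = 0.0216) in Foxp3+ cells and by 1.04 ± 0.13 (2.06-fold, adjusted p = 0.0269) in Foxp3- cells. Within numbers the Foxp3+ differences were 0.84 and 1.23 and the Foxp3- differences 1.09 and 1.00, so all 4 pairs of arrays had the same direction. The unpaired fit gave the same differences with SE 0.34 and adjusted p = 0.469 and 0.609, and so did not call them. These calls depended on single arrays: the Foxp3+ call was lost without Sp-DC Foxp3- array 1 or 2, LP-DC Foxp3+ array 2 or Sp-DC Foxp3+ array 2, and the Foxp3- call without either array of LP-DC Foxp3- or of Sp-DC Foxp3- cells, while the difference stayed between 0.91 and 1.16 in Foxp3+ and between 0.99 and 1.10 in Foxp3- cells. In cells measured in bulk, fewer cells with the transcript and less transcript per cell cannot be told apart.

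The second Il7r probe set gave larger differences than the first. Its log2 level in Foxp3+ cells was 9.67 and 10.19 with LP-DC, 8.34 and 9.30 with Sp-DC plus RA and 8.45 and 8.49 with Sp-DC. Tested on its own in the paired fit, it rose with LP-DC over Sp-DC by 1.45 (2.74-fold, adjusted p = 0.0289) in Foxp3+ cells and by 1.31 (2.47-fold, adjusted p = 0.0349) in Foxp3- cells (0.413 and 0.624 in the unpaired fit). It also rose with LP-DC over Sp-DC plus RA in Foxp3+ cells, by 1.10 (2.15-fold, adjusted p = 0.0317, and 0.635 unpaired), where the first probe set gave 0.59 ± 0.13 (1.50-fold, adjusted p = 0.0668 in the paired and 0.999 in the unpaired fit).

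**Figure D2:**
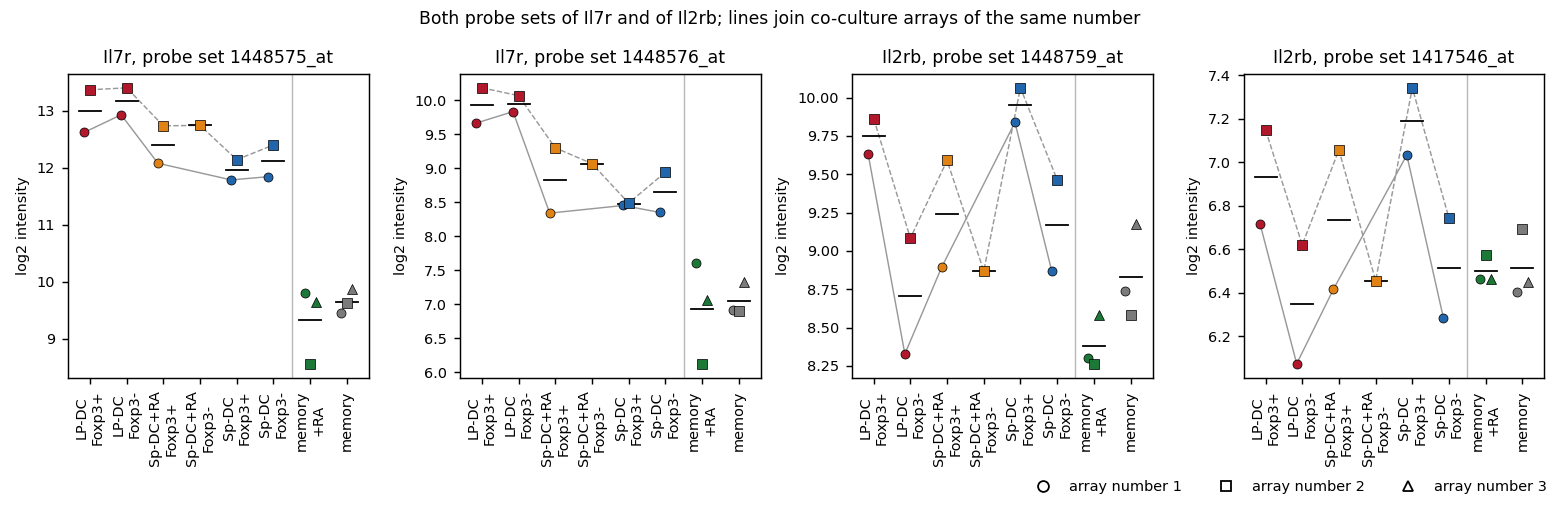
Log2 intensity of both probe sets of Il7r (left) and both of Il2rb (right) by group, with lines joining co-culture arrays of the same number. Both Il7r probe sets are highest with LP-DC, and both Il2rb probe sets zigzag between higher Foxp3+ and lower Foxp3- arrays along each line.

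Il27ra, whose product senses IL-27, was also higher with LP-DC than with Sp-DC. Its log2 level in Foxp3+ cells was 10.45 and 10.48 with LP-DC, 10.14 and 10.24 with Sp-DC plus RA and 9.75 and 9.76 with Sp-DC. In Foxp3- cells it was 10.13 and 10.23 with LP-DC, 10.34 with Sp-DC plus RA and 9.52 and 9.61 with Sp-DC, so no array of LP-DC or Sp-DC plus RA reached down to the Sp-DC range. The share of all genes without such overlap was not counted. No measured member of the lone Sp-DC plus RA Foxp3- array overlapped the Sp-DC Foxp3- pair, so lack of overlap there does not single out Il27ra. By group means Il27ra ran through LP-DC Foxp3+ (10.46), Sp-DC plus RA Foxp3- (10.34), Sp-DC plus RA Foxp3+ (10.19), LP-DC Foxp3- (10.18), Sp-DC Foxp3+ (9.76) and Sp-DC Foxp3- cells (9.57), and of these neighbours Sp-DC plus RA Foxp3+ and LP-DC Foxp3- cells overlapped. In the paired fit Il27ra rose with LP-DC over Sp-DC in Foxp3+ cells by 0.71 ± 0.12 (1.63-fold, adjusted p = 0.0321; 0.355 in the unpaired fit). In Foxp3- cells the difference was 0.61 ± 0.12 (1.53-fold) with an adjusted p of 0.0544, short of a call, and 0.490 in the unpaired fit. The Foxp3+ call was lost without either LP-DC Foxp3+ array, either Sp-DC Foxp3- array or Sp-DC Foxp3+ array 2, with the difference between 0.67 and 0.75 throughout. Across the 11 co-culture arrays the log2 levels of Il7r and Il27ra correlated at r = 0.74, which is given as a description, since the arrays share groups and numbers.

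For LP-DC over Sp-DC, the paired fit thus called 2 of 7 measured members in Foxp3+ cells, where 1.44% of all genes tested were called, and 1 of 7 in Foxp3- cells, where 0.586% were. The unpaired limma fit called 0 members and 0% of all genes in both. At an unadjusted p under 0.05 it had 2 members and 959 genes in Foxp3+ cells and 2 members and 795 genes in Foxp3- cells. The paired limma fit had 2 members and 2260 genes in Foxp3+ cells and 4 members and 1994 genes in Foxp3- cells at that threshold. Of those 4, Il7r and Il27ra were higher with LP-DC, and Il2rb (-0.46 ± 0.16) and Jak3 (-0.35 ± 0.15) were lower. Apart from Il7r and Il27ra, the 5 members had differences between -0.28 and 0.07 in Foxp3+ and between -0.46 and 0.22 in Foxp3- cells. The median of the 7 was -0.19 and -0.14, against 0.01 and 0.00 over all genes. For LP-DC over Sp-DC plus RA in Foxp3+ cells 0 members were called by either fit, against 1.83% of all genes in the paired and 0.0921% in the unpaired fit. At an unadjusted p under 0.05 there were 3 and 0 members in the paired and unpaired fit, against 1669 and 692 of all 11940 genes. Of the 10 listed DC markers with a probe set 7 lay above the median on every co-culture array, and Itgax, Lyz2 and Xcr1 lay below it on each. Of the 7 above it, all but H2-Ab1 stayed at or below 6.89, near the array median. The paired fit called 0 of 7 tested DC markers in Foxp3+ and 1 of 7 in Foxp3- cells, with list medians of -0.05 and -0.07. The log2 of the summed level, to which H2-Ab1 (8.85 to 10.78) gave the most, was 10.45 to 10.46 in LP-DC Foxp3+ and 10.11 to 10.25 in LP-DC Foxp3- cells, against 10.77 to 11.24 in Sp-DC Foxp3+ and 10.64 to 11.18 in Sp-DC Foxp3- cells. The called marker was H2-Ab1, an MHC class II chain that fell by 1.28 with LP-DC in Foxp3- cells in the paired fit. For the CD8 T and NK cell list (7 genes with a probe set) the summed level was 10.70 to 11.06 in LP-DC Foxp3+ cells, against 11.97 to 12.36 in Sp-DC Foxp3+ cells, and 1 of 4 tested members, Nkg7, fell there in the paired fit. The part of these transcripts in the differences was not tested.

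Il2rb, the beta chain shared by the IL-2 and IL-15 receptors, was the only member called between Foxp3+ and Foxp3- cells, by the paired fit. With LP-DC its log2 level was 9.63 and 9.86 in Foxp3+ cells against 8.33 and 9.08 in Foxp3- cells. With Sp-DC plus RA it was 8.89 and 9.59 in Foxp3+ cells against 8.87 on the lone Foxp3- array, and with Sp-DC it was 9.84 and 10.06 in Foxp3+ against 8.87 and 9.46 in Foxp3- cells. The sorted groups did not overlap in any of the 3 cultures, although with Sp-DC plus RA the lower Foxp3+ array barely exceeded the Foxp3- array. With that lone Foxp3- array no measured member overlapped, the others being lower in Foxp3+ cells, so lack of overlap there does not single out Il2rb. The share of all genes without overlap was not counted. In order of group means Il2rb ran through Sp-DC Foxp3+ (9.95), LP-DC Foxp3+ (9.75), Sp-DC plus RA Foxp3+ (9.24), Sp-DC Foxp3- (9.17), Sp-DC plus RA Foxp3- (8.87) and LP-DC Foxp3- cells (8.71), so by their means all 3 Foxp3+ groups stood above all 3 Foxp3- groups. Of neighbours in this order, LP-DC Foxp3+ and Sp-DC plus RA Foxp3+ cells were apart, as were Sp-DC Foxp3- cells and the lone Sp-DC plus RA Foxp3- array, and the rest overlapped. With LP-DC, Il27ra was also higher in Foxp3+ than in Foxp3- cells without overlap, at 10.45 and 10.48 against 10.13 and 10.23. With Sp-DC it was at 9.75 and 9.76 against 9.52 and 9.61. With Sp-DC plus RA Il27ra was lower in Foxp3+ cells, and it was not called in any sort.

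As the mean of the 3 cultures, Il2rb was higher in Foxp3+ cells by 0.82 ± 0.10 in the paired fit (1.76-fold, adjusted p = 0.00206), and by 0.73 ± 0.21 in the unpaired fit, which did not call it (adjusted p = 0.234). The paired call held in 10 of 10 fits that left out an array, between 0.75 and 0.88. Within cultures, Il2rb rose by 1.04 ± 0.16 with LP-DC (2.06-fold, adjusted p = 0.00828 in the paired and 0.419 in the unpaired fit), a call lost without LP-DC Foxp3- array 1 or LP-DC Foxp3+ array 1. The difference was 0.62 ± 0.21 with Sp-DC plus RA (adjusted p = 1.00) and 0.78 ± 0.16 with Sp-DC (adjusted p = 0.0783). The difference between the LP-DC and the Sp-DC sort was 0.26 ± 0.23 and was not called, so the sorts were not shown to differ. The second Il2rb probe set gave 0.59 for the mean of the 3 cultures (adjusted p = 0.00379) and 0.59 with LP-DC (adjusted p = 0.0458) in the paired fit, and was not called in the unpaired fit (0.500 and 1.00).

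Il2rb was the 1 member of 7 called in the sort averaged over cultures, where the paired fit called 4.75% of all genes and the unpaired fit 0.896% (0 members). With LP-DC it was again the 1 member of 7, against 3.49% of all genes in the paired and 0.159% in the unpaired fit (0 members). With Sp-DC plus RA, 0.0251% and 0% of genes were called, and with Sp-DC 0.586% and 0% (paired and unpaired limma fit), with 0 members in either. At an unadjusted p under 0.05 those sorts had 2 and 1 members with Sp-DC plus RA and 1 and 1 with Sp-DC. Over all genes the counts were 419 and 197 with Sp-DC plus RA and 1142 and 418 with Sp-DC. The difference of the LP-DC and Sp-DC sorts gave 0% of genes called in both limma fits, with 0 members and 439 genes (paired) or 108 genes (unpaired) at an unadjusted p under 0.05. Il7r was not called by Foxp3, at -0.13 ± 0.08 over the 3 cultures with a 95% confidence interval of -0.32 to 0.06, and the median of the 7 members was -0.06 against -0.02 over all genes. Of 4 tested markers of CD8 T and NK cells, which also express Il2rb, 2 fell in Foxp3+ cells. Of the 7 with a probe set, Cd8b1, Ncr1 and Klre1 lay below the median on every array. The log2 of the summed level of all 7 was 10.70 to 11.06 in LP-DC Foxp3+ against 12.37 to 12.76 in LP-DC Foxp3- cells. It was 11.26 to 11.51 in Sp-DC plus RA Foxp3+ against 12.50 in Sp-DC plus RA Foxp3- cells. With Sp-DC it was 11.97 to 12.36 in Foxp3+ against 12.89 to 12.92 in Foxp3- cells. Klrd1, a lectin-like NK receptor chain, fell by 2.14 and Gzma, a granzyme, fell by 2.86 in the paired fit, and both were called in the unpaired fit too. Cd8a stayed between 7.34 and 7.80 over the 11 co-culture arrays. Their part in the Il2rb difference was not tested.

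**Figure D3:**
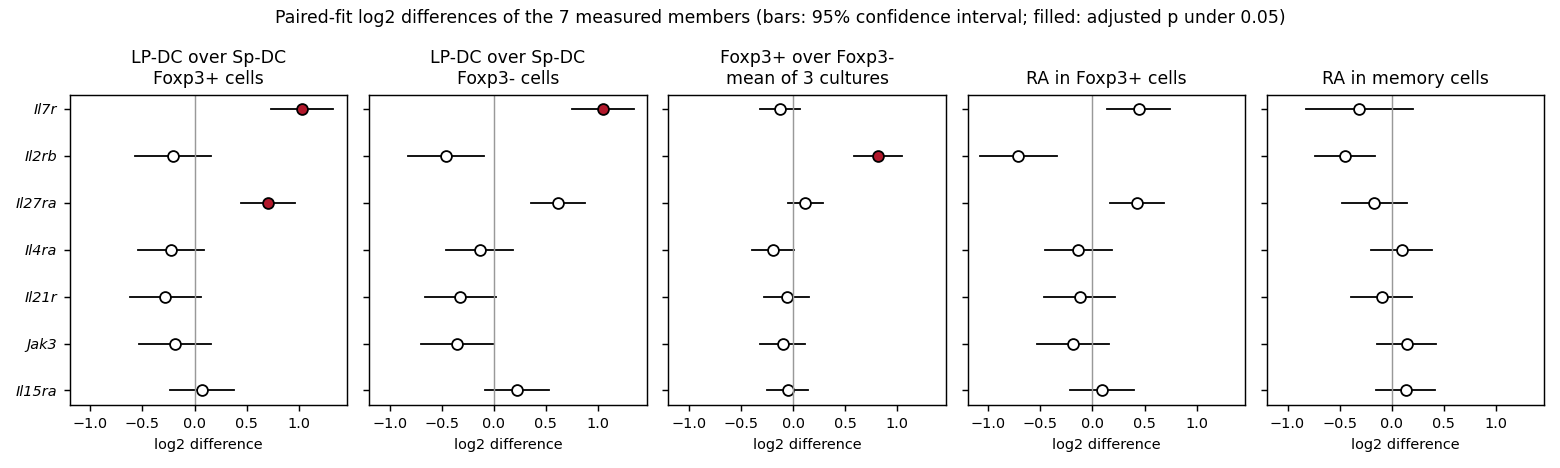
Log2 difference of the 7 members (rows) in 5 comparisons (panels) from the paired fit, with 95% confidence intervals as bars and filled points for an adjusted p under 0.05. Il7r in both LP-DC comparisons, Il27ra in Foxp3+ cells and Il2rb in the Foxp3 sort are filled, and the intervals of Il4ra, Il21r and Jak3 reach 0 in every panel but that of Jak3 for LP-DC over Sp-DC in Foxp3- cells.

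For RA added to Sp-DC cultures, 0 of the 7 members were called in either fit, against 1.03% and 0.101% of all genes in Foxp3+ cells and 0.268% and 0.00838% in Foxp3- cells (paired and unpaired). At an unadjusted p under 0.05 there were 3 members in the paired and 1 in the unpaired fit in Foxp3+ cells, and 3 and 2 in Foxp3- cells. Over all 11940 genes tested the counts were 1469 and 576 in Foxp3+ cells, and 730 and 297 in Foxp3- cells. In Foxp3+ cells the paired differences were 0.44 ± 0.13 for Il7r (adjusted p = 0.195), 0.43 ± 0.12 for Il27ra (adjusted p = 0.142) and -0.71 ± 0.16 for Il2rb (adjusted p = 0.0895), each with the same sign in both numbered pairs. In Foxp3- cells, which rest on the lone array of Sp-DC plus RA and assume that it varies like the others, the 3 members were Il27ra at 0.74 ± 0.15 (adjusted p = 0.102), Il4ra at 0.49 ± 0.18 (adjusted p = 0.613) and Il2rb at -0.55 ± 0.21 (adjusted p = 0.638), and Il7r differed by 0.34 ± 0.17. The median of the 7 was -0.12 in Foxp3+ and 0.09 in Foxp3- cells, against 0.00 and 0.01 over all genes. The CD8 T and NK cell list summed to 11.26 to 11.51 with RA and 11.97 to 12.36 without in Foxp3+ cells, where 1 of 4 tested members, Klrd1, fell in the paired fit, and its part was not tested. The comparisons with RA and those with LP-DC share the Sp-DC arrays.

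In memory cells Il7r was far lower than in the co-culture. Its log2 level was 9.80, 8.56 and 9.64 with RA and 9.45, 9.62 and 9.87 without, against 11.78 to 13.40 over the 11 co-culture arrays. The experiments did not overlap, and the share of all genes without overlap between them was not counted. CD4+ T cell identity markers were also lower in memory cells by their sum. The log2 of their summed level was 13.19 to 13.48 there, against 14.17 to 14.48 in the co-culture. Of these markers, Cd3d did not overlap (10.19 to 11.58 against 12.34 to 12.94), while Cd3e and Cd4 did. The experiments differ in starting cells, partner cells, stimulus, amounts of IL-2 and TGF-beta, time and 3′ bias, which cannot be told apart. Whether they were normalized together is not stated. No other member was as far apart: Il2rb, Il4ra, Il21r, Il15ra, Il27ra and Jak3 overlapped between the experiments.

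In memory cells 0 members were called for RA by either fit, against 5.15% of genes called in the paired and 0.0987% in the unpaired fit. At an unadjusted p under 0.05 there were 1 and 0 members, against 1909 and 504 of all 12163 genes. Il2rb came nearest, at 8.30, 8.26 and 8.58 with RA and 8.74, 8.58 and 9.17 without. It was lower with RA in 3 of 3 numbered pairs, by -0.45 ± 0.13 in the paired fit (adjusted p = 0.0964), and the RA array numbered 3 was level with the untreated array numbered 2. The second Il2rb probe set disagreed, with a difference of -0.02 ± 0.13. Il7r differed by -0.31 ± 0.23 (adjusted p = 0.599), with pair differences of 0.35, -1.06 and -0.23, so the pairs did not share a direction. Without the RA array or the untreated array numbered 1 the paired fit called Il7r, at -0.65 (adjusted p = 0.0161 and 0.0166). With all 6 arrays the other 5 members had paired differences between -0.17 and 0.14. The median of the 7 was -0.10 against 0.00 over all genes. The log2 summed level of CD8 T and NK cell markers was 10.10 to 10.66 with RA and 9.24 to 10.07 without, and that of 4 naive T cell markers 11.14 to 11.63 with RA and 11.82 to 12.44 without. In the paired fit 2 of 4 tested members rose in the CD8 T and NK list (Nkg7 and Klrd1) and 2 of 4 fell in the naive list (Satb1 and Ccr7). Their part in the result was not tested. Comparing the RA difference of memory cells with that of Foxp3+ co-culture cells gave -0.76 ± 0.31 for Il7r (adjusted p = 0.324) and -0.60 ± 0.17 for Il27ra (adjusted p = 0.138), and 0 members were called, against 1.51% of genes in the paired and 0.052% in the unpaired fit.

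Il4ra (the chain that pairs with the gamma chain to bind IL-4), Il21r (the IL-21 receptor) and Jak3 were not called in any comparison, and in memory cells they differed more between array numbers than with RA. Il4ra was at 10.13, 10.35 and 8.63 on the RA arrays numbered 1, 2 and 3 and at 10.14, 10.07 and 8.62 on the untreated ones. Il21r was at 8.36, 8.69 and 7.30 with RA and 8.43, 8.66 and 7.55 without, and Jak3 at 8.31, 8.34 and 7.60 with RA and 8.27, 8.19 and 7.38 without. The arrays numbered 3 were thus low for the 3 genes in both groups, and they have the highest 3′ over 5′ ratio of Gapdh among the memory arrays. The ratio of Actb did not go that way, at 3.54 to 3.70 on the arrays numbered 3 and 3.60 to 4.08 on the others. The part of these ratios in the low levels was not tested. Il4ra is read here from a probe set of the kind that can cross-hybridize, and its 2 others did not show a difference of that size: one was at 8.04, 8.43 and 8.33 with RA and 7.99, 7.95 and 8.06 without, the other at 6.54, 6.59 and 6.41 with RA and 6.76, 6.41 and 6.16 without. With both arrays numbered 3 left out, an alternative chosen after seeing the data, 0 members were called for RA in memory cells by either fit.

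In the co-culture Il4ra ran between 9.17 and 10.04, with the lone Sp-DC plus RA Foxp3- array highest. Il21r ran between 8.24 and 8.99 and Jak3 between 7.53 and 8.65, and within each group of 2 the array numbered 2 was the higher for both genes. Il21r and Jak3 correlated at r = 0.94, Il4ra and Il21r at 0.80 and Il4ra and Jak3 at 0.77 over the 11 co-culture arrays, which share these numbers. Il15ra, which presents IL-15 to neighbouring cells, lay near the array median by its brighter probe set, above it on 12 of 17 arrays and between 5.61 and 6.18 throughout. Its other probe set ran between 5.25 and 6.45. In memory cells that probe set was higher with RA in each numbered pair, by 0.38 ± 0.14 in the paired fit (adjusted p = 0.224, not called). At that signal the arrays have little room to show a difference, and Il15ra was not called in any comparison.

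By the rule for likeness (the highest Pearson correlation over the 17 arrays after each experiment's mean was taken away, among genes tested in both), Il7r was closest to Pogz (r = 0.88), Mturn (0.85), Sel1l (0.84), Arid4b (0.83) and Ppcdc (0.83). Il2rb was closest to Sypl (0.94) and Acot9 (0.91), and Il27ra to Zfp623 (0.83) and Huwe1 (0.82). Il4ra was closest to Atp5g2 and Mier2 (both 0.96), Il21r to Snapc2 (0.96) and Gtf2h4 (0.95), Jak3 to Fam174b (0.96) and Gmppa (0.95), and Il15ra to Polr3d (0.71) and Ears2 (0.70). These values describe arrays that share groups and numbers, and those of Il4ra, Il21r and Jak3 include the memory arrays numbered 3.

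Among the other genes of the pathway, Il2ra, which joins Il2rb in the high-affinity IL-2 receptor, was higher in Foxp3+ cells as Il2rb was. In the paired fit for the mean of 3 cultures, which called 4.75% of all genes, 2 of 6 tested partner receptor chains rose, Il2ra by 1.58 (adjusted p = 0.0679 unpaired) and Il6st by 0.56, and 0 fell. Of 11 feedback inhibitors 3 rose, Socs2 by 1.29, Socs3 by 0.79 and Cish by 0.75. Of 15 cytokine response genes 5 rose and 1 fell, with Pim1 at 0.83, Osm at 0.68 and Ccnd2 at 0.58 above and Pim2 at -1.10 below. Socs2 and Pim1 were also called in the unpaired fit (adjusted p = 0.0182 each). The T helper cytokine gene Il4 fell by 0.85, the 1 called of 2 tested ligands, and 0 of 8 Jak and Stat genes and 0 of 11 regulators of Il7r and Foxo1 targets were called. Medians were 0.31 for the partner chains, 0.15 for the feedback inhibitors and 0.30 for the response genes, against -0.02 over all genes.

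With LP-DC the sort gave Il2ra at 1.99, Socs2 at 1.89, Cish at 1.18 and Socs5 at 0.81, Pim1 at 1.23, Bcl2l1 (an anti-apoptotic Bcl2 relative) at 1.00 and Ccnd2 at 0.80, Ebi3 (a subunit of IL-27) at 1.22 and Il4 at -1.02, all called in the paired fit (3.49% of all genes) and none in the unpaired fit. With Sp-DC, Socs3 was called at 1.11, and with Sp-DC plus RA no listed pathway gene was. For LP-DC over Sp-DC in Foxp3+ cells the paired fit called Jak2 (0.85) of 8 Jak and Stat genes, Irf4 (1.10) of 15 response genes, and 0 of 11 regulators of Il7r and Foxo1 targets, against 1.44% of all genes. In Foxp3- cells it called Il6ra (1.46) and Il12rb1 (-0.89) of 6 partner chains, against 0.586% of all genes. The unpaired fit called none of these 4 genes and 0% of all genes in either comparison. For LP-DC over Sp-DC plus RA in Foxp3+ cells, Il6ra, the IL-6 receptor chain, rose by 2.88 and was called in both fits (adjusted p = 0.0139 unpaired), S1pr1, a Foxo1-linked egress receptor, rose by 0.93 and Gfi1, a transcriptional repressor of Il7r among other genes, fell by 1.04 in the paired fit only (1.83% of all genes).

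**Figure D4:**
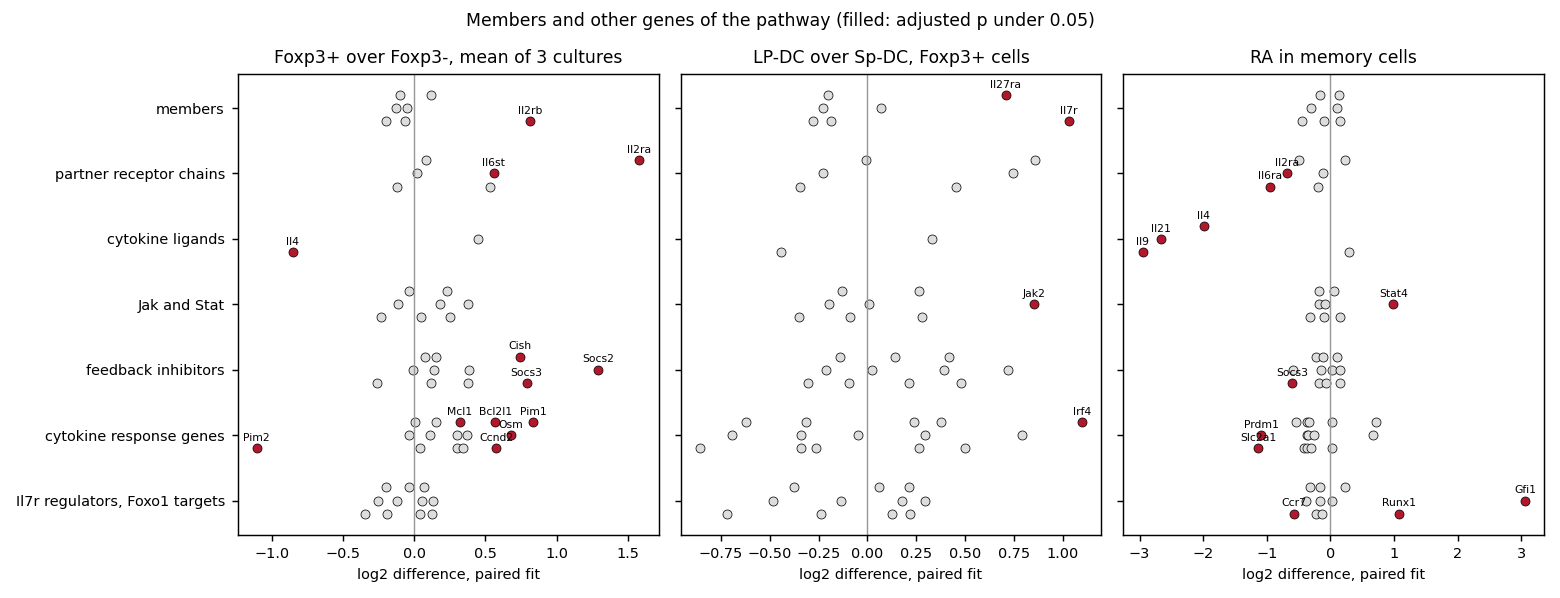
Paired-fit log2 differences of the members and of tested genes in 6 pathway lists (rows) in 3 comparisons (panels), with filled and named points for an adjusted p under 0.05. Il2ra stands beside Il2rb among the genes higher in Foxp3+ cells, and Gfi1 at 3.06 and the ligands Il4, Il9 and Il21 at -1.99 to -2.95 mark the ends of RA in memory cells.

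With RA in Foxp3+ cells Il6ra fell by 2.02, Socs3 by 0.97 and Prdm1, a repressor that acts in differentiated lymphocytes, by 1.02, and Ebi3 rose by 1.06, in the paired fit only (1.03% of all genes). In memory cells with RA 3 of 4 tested ligands fell in the paired fit (5.15% of all genes), Il9 at -2.95, Il21 at -2.66 and Il4 at -1.99, while the receptors of IL-21 and IL-4 among the members were not called. The median of the 4 ligands was -2.32. Of 6 partner chains Il6ra (-0.96) and Il2ra (-0.68) fell, of 15 response genes Slc2a1 (-1.14, a glucose transporter) and Prdm1 (-1.08) fell, and of 11 feedback inhibitors Socs3 (-0.61) fell. Of 8 Jak and Stat genes Stat4 (0.99) rose. Of 11 regulators of Il7r and Foxo1 targets Runx1 (1.08) and Gfi1 rose and Ccr7 (-0.58) fell. Gfi1 rose by 3.06 and was the 1 pathway gene called in both fits (adjusted p = 0.00607 unpaired).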

How the data were processed

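Per the labels, RNA went through 2 rounds of amplification before hybridization, which shortens products toward the 3′ end. Linear intensity values of 45101 probe sets on 17 arrays were used as deposited. Per the submitters' processing notes they are RMA values. No RMA version, and no statement on joint normalization of the experiments, is given in the sources used here. The log2 of each value was taken with no pseudocount. Of the probe sets, 34958 have 1 gene symbol, and those with several (932) or none (9211) were not used.

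Each gene was read from its brightest probe set. limma 3.58.1 in R 4.3.3 was fitted to 11 co-culture arrays, to 6 memory arrays, and to all 17 (11537 genes) for the difference between experiments, with Benjamini-Hochberg adjustment over all genes tested. Residuals of arrays with the same number correlated at 0.66 to 0.94 in the memory groups and at 0.45 to 0.76 over 10 pairs of co-culture groups, so the numbers pair the arrays and the paired fit is given beside the unpaired one. Residual degrees of freedom were 5 and 4 in the co-culture and 4 and 2 in the memory experiment (unpaired and paired). The scripts were tested on simulated data. The number of arrays limits the precision.

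The members and gene lists were chosen with earlier results of these data known. Named are all members, up to 4 called genes per list and comparison by size, the closest genes to each member, and marker genes of other cell types. Alternatives were other normalizations, filters, log scale, probe sets, the block, and each array left out. Some source descriptions call Foxp3+ samples Foxp3-; the sample titles were followed.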

Additional observations from a re-analysis of the deposited data

How the results depend on the processing

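The replicate block made the difference to the calls: with it 1 member was called in the Foxp3 sort averaged over cultures, 1 in the LP-DC sort, 2 for LP-DC over Sp-DC in Foxp3+ and 1 in Foxp3- cells, against 0 in the unpaired fit. With the block and quantile normalization, 1 member was called in the Sp-DC sort (Il2rb, 0.83, adjusted p = 0.0378), 1 for RA in Foxp3+ cells (Il2rb, -0.73, adjusted p = 0.0429) and 2 for LP-DC over Sp-DC in Foxp3- cells (Il7r at 1.10 and Il27ra at 0.66). With the block, the log2 of the value plus 32 and the mean of all probe sets each called 1 member for LP-DC over Sp-DC plus RA in Foxp3+ cells (Il7r, 0.59 and 0.85). Leaving out each array in turn with the block kept gave 0 to 1 members for RA in memory cells, 0 to 1 in the LP-DC sort, 0 to 2 for LP-DC over Sp-DC in Foxp3+ and 0 to 1 in Foxp3- cells. Those fits have fewer arrays; for the other settings the cause was not tested. Of 3084 recomputed member differences, 3057 kept their side of the threshold, 15 lost a call, 12 gained one and 0 called differences changed sign, while 151 uncalled ones did. The block changed no other member's call. Scaling moved the median of all genes by at most 0.0491. Il15ra is limited by signal near the array median, and groups of 1 to 3 arrays limit every member.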
